A study of Mus musculus with 52 samples.

Results

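Nuclear factor kappa B (NF-kB) genes and the genes that restrain the pathway were followed in mouse liver over 11 times after 2/3 partial hepatectomy. A list of 10 genes was taken, and each gene was read from its brightest probe set, by the average of the 52 arrays, among those annotated to that gene alone. Of the 10 genes, 9 were measured (Tnfrsf1a, Nfkbia, Nfkbiz, Bcl3, Tnfaip3, Birc3, Nfkb2, Relb and Icam1), by 18 probe sets in all, out of 18194 genes on the array. The tenth listed gene is not analysed here.

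The arrays were 52 Affymetrix Mouse Genome 430 2.0 arrays of total liver RNA from C57Bl6/N mice, 8 to 12 weeks old, kept on a standard diet, and every mouse is labelled male. On 3 arrays, 24-hour replicates 9, 10 and 11, that label did not match: Xist, which silences one X chromosome in female cells, read 9.12 to 9.49 against 2.51 to 3.81 on the other 49, and the Y-linked gene Eif2s3y 1.98 to 2.78 against 7.47 to 8.78. The 24-hour differences of Tnfrsf1a, Tnfaip3, Icam1 and Nfkb2 are therefore given with and without these 3. Values of other genes, lists and markers at 24 hours are given with them only. Untreated liver (control) had 5 arrays, and the other 47 came from mice that had undergone partial hepatectomy. There were 4 arrays for each of 6, 12 and 48 hours, 3 and 4 days, and 1 and 4 weeks, 3 arrays each for 1 hour and 3 months, 2 for 2 weeks and 11 for 24 hours. No sham-operated group was used here, so the loss of tissue and the operation itself cannot be told apart. The labels do not say that each array is a separate mouse, and p-values measure the spread between these arrays, which may be technical. Values are log2 RMA expression values (robust multi-array average, a way of turning probe signals into 1 normalized value per probe set). The number of arrays per group limits the precision.

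NF-kB is a family of dimeric transcription factors that inhibitor of kappa B (IkB) proteins hold in the cytoplasm. Signals from receptors such as the tumour necrosis factor (TNF) receptor activate a kinase complex that leads to IkB degradation, and the freed dimers switch on inflammatory genes together with their own inhibitors, so that the response is brought down again. In a second branch of the pathway, the NFKB2 precursor is processed and pairs with RELB. In the liver, TNF from resident macrophages and the NF-kB response to it are known as part of the early priming of hepatocytes after resection.

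The starts of these genes show which members carry the factor's binding letters. RefSeq promoter windows (GRCm38.p6, 250 bases before to 50 after each start, read on the gene's strand) were found for 7 of the 9 genes, in 10 windows. Nfkbiz and Relb had no entry. Both strands were searched for the kappa B consensus, which 4.51% of all 32851 promoter windows held, and for the shorter motif GGNNTTTCC, which 5.82% held. The letters of the 2 motifs overlap at some places. The windows of Nfkbia, Tnfaip3, Icam1, Bcl3 and Tnfrsf1a, on which much of what follows turns, are given below, lower case with every match to either motif in capitals.

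Nfkbia (chr12:55492598-55492897, minus strand): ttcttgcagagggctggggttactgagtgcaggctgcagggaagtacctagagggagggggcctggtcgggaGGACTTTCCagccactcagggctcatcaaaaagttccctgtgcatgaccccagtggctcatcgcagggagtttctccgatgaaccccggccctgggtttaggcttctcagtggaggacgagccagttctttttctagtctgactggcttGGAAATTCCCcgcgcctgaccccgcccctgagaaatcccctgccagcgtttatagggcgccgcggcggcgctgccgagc
Tnfaip3 (chr10:19015361-19015660, minus strand): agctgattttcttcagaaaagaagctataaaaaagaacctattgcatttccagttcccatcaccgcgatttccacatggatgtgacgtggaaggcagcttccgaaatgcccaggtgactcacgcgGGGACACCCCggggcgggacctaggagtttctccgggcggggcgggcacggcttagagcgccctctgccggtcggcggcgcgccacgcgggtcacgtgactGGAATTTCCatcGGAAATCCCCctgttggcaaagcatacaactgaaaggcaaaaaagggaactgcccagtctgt
Icam1 (chr9:21015690-21015989, plus strand): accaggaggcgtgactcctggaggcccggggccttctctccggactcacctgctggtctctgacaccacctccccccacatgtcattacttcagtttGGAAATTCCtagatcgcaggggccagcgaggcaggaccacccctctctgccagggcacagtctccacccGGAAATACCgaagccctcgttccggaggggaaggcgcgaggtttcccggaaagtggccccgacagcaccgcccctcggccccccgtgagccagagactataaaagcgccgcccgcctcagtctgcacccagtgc
Bcl3 (chr7:19822706-19823005, minus strand): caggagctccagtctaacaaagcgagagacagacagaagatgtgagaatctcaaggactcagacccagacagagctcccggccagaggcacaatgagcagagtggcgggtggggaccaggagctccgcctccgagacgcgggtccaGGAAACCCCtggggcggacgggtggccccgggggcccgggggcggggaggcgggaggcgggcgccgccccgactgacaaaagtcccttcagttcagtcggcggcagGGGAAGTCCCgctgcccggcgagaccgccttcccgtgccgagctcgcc
Tnfrsf1a (chr6:125349473-125349772, plus strand): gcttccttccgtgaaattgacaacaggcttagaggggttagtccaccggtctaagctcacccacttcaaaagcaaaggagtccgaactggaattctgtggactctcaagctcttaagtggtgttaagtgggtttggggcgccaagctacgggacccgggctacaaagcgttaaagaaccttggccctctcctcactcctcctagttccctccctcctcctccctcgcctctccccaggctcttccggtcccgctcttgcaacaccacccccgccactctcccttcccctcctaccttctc

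The Nfkbia window held 1 consensus and 2 short matches. The consensus match began 29 bases before the start with a short match inside it, and the other short match began 178 bases before the start. The first Tnfaip3 window held 2 consensus and 2 short matches, with consensus matches that began 125 and 12 bases before the start. A second Tnfaip3 window held none. Icam1 held 2 short matches and no consensus match, and Bcl3 held 1 of each. All 3 Nfkb2 windows held at least 1 consensus match. Birc3 and Tnfrsf1a held neither motif in these windows, which says only that the letters were not there.

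Over all times, 31 of the 99 member-by-time comparisons with control passed an adjusted p of 0.05 (limma, Benjamini-Hochberg over 18194 genes), 18 higher and 13 lower, and 11 of the 13 were of 1 gene, Nfkb2. The control arrays also stood apart in a sign of RNA quality, the signal of the 3′ minus the 5′ Gapdh control probe set, which averaged 1.61 (1.12 to 2.56) on the controls and 0.65 to 1.10 by operated group (0.40 to 2.32 by array), and its part in the differences from control was not tested. At 1 hour no member passed higher, where 3.67% of all genes did, and 1 member (Nfkbia) had an unadjusted p under 0.05. At 6 hours Tnfrsf1a, Bcl3 and Nfkbiz did (11.4% of all genes), at 12 and at 24 hours Tnfrsf1a and Icam1 (17.9% and 18.9%), and at 48 hours and 3 days Tnfrsf1a alone (17.4% and 21.7%). At 4 days Tnfrsf1a, Icam1, Nfkbiz and Tnfaip3 passed higher (18.8%), at 1 week Tnfrsf1a, Icam1 and Tnfaip3 (21.8%), and at 3 months Icam1 and Tnfaip3 (16.7%). None did at 2 weeks (2.8%) or 4 weeks (9.33%), where 0 members were higher at an unadjusted p under 0.05 too. Nfkb2 passed lower at every time, and Birc3 passed lower at 6 and 48 hours. The share of all genes that passed lower was 1.37% at 1 hour, 10.5% at 6, 12.0% at 12, 12.8% at 24 and 13.4% at 48 hours, 17.7% and 14.1% on days 3 and 4, 14.9%, 0.605% and 5.39% after 1, 2 and 4 weeks, and 13.4% after 3 months.

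The arrays of a time often stood clear of the controls without a call. Every array lay above every control for Nfkbia at 1 hour (11.3% of all genes), and at 6 hours for Nfkbia, Nfkbiz, Tnfaip3, Bcl3, Icam1 and Tnfrsf1a (14.6%), which is 6 of 9 members. The same held at 12 hours for Nfkbia, Tnfaip3, Icam1 and Tnfrsf1a (19.5%), and for Icam1 and Tnfrsf1a at 24 hours (6.55%), 48 hours (15.8%), 3 days (16.9%) and 4 days (15.9%). It held at 1 week for the same 4 genes as at 12 hours (18.2%), at 2 weeks for Nfkbia, Relb and Tnfaip3 (15.8%), at 4 weeks for none (8.31%) and at 3 months for Nfkbia (19.0%). Every array lay below every control for Nfkb2 at each time but 24 hours, joined by Birc3 at 6 hours, Birc3 and Relb at 48 hours, Nfkbia at 3 days and Bcl3 at 2 weeks. The shares of all genes for this were 7.79%, 15.1%, 13.3%, 2.41% and 11.2% from the 1-hour to the 48-hour arrays, 12.2% and 12.1% on days 3 and 4, 11.5%, 13.2% and 8.34% after 1, 2 and 4 weeks, and 15.8% after 3 months.

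The split of calls moved with scaling: with each array centred on its median it was 3 higher and 1 lower at 6 hours, 1 and 1 at 12 hours and 3 and 1 at 4 days, and with quantile normalization it was 2 and 2 at 6 hours, 0 and 2 at 48 hours, 0 and 1 at 3 days, 2 and 1 at 4 days and 3 and 1 at 3 months. The main splits were 3 and 2, 2 and 1, 4 and 1, 1 and 2, 1 and 1 and 2 and 1 at 6 hours, 12 hours, 4 days, 48 hours, 3 days and 3 months. Shares of all genes were not counted under either scaling. In a test over all 11 times at once (moderated F test, adjusted p under 0.05) 6 of the 9 passed, against 64.6% of all genes, and Nfkbiz, Tnfaip3 and Relb did not. Between neighbouring times, 5 steps of members passed, all between 1 and 12 hours. In the other 8 steps no member passed in limma, with 11 of 72 tests at an unadjusted p under 0.05, and of all genes 9.72% passed from 12 to 24 hours, 5.48% from 24 to 48 hours, 0.044% from there to day 3, 0.0% to day 4, 0.022% to week 1, 0.594% to week 2, 0.0055% to week 4 and 2.39% to month 3.

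**Figure D1:**
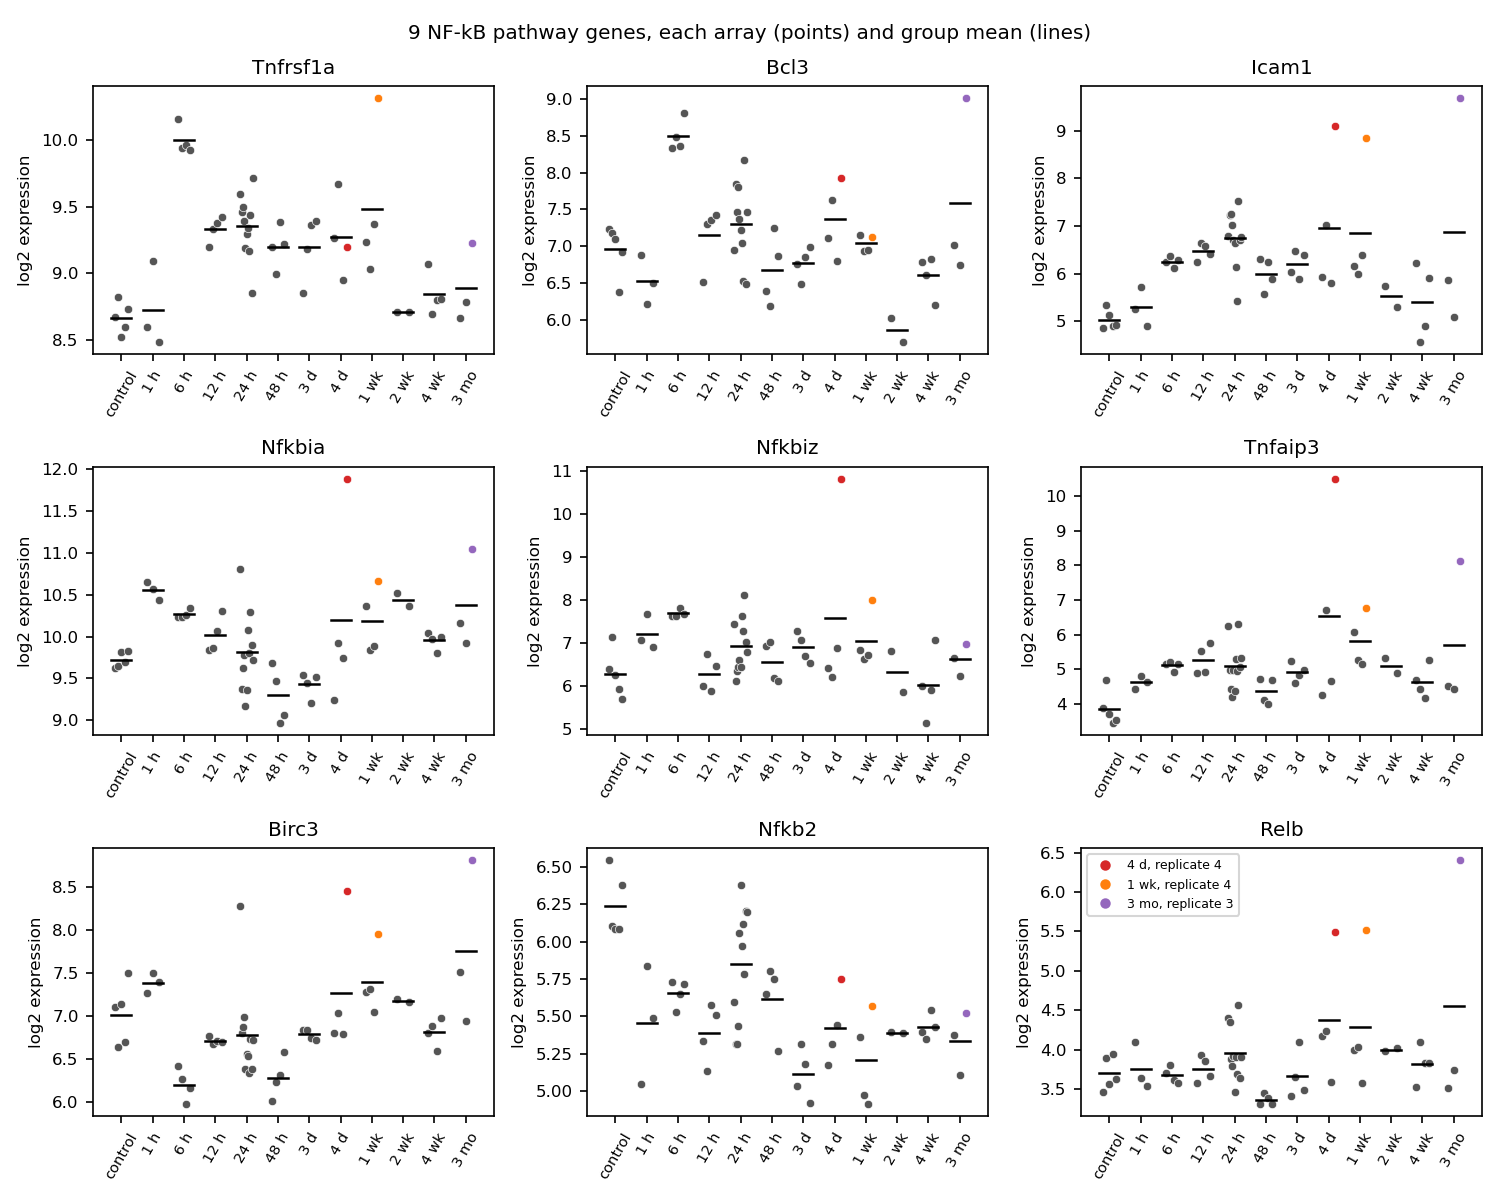
Log2 expression (vertical axis) of the 9 genes on every array, by group along the horizontal axis (control, then hours, days, weeks and months after partial hepatectomy); points are arrays and lines are group means. The 4 arrays at 6 hours are the highest group for Tnfrsf1a and Bcl3 with little spread, and the coloured points mark 4-day replicate 4, 1-week replicate 4 and 3-month replicate 3, which lie far above their groups for several genes.

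Tnfrsf1a, the receptor through which TNF activates the pathway, was raised at 7 times in a row, from 6 hours to 1 week. The control arrays read 8.67, 8.82, 8.52, 8.60 and 8.73, the 1-hour arrays 8.60, 9.10 and 8.49, and the 6-hour arrays 10.16, 9.94, 9.97 and 9.93. The 6-hour arrays lay above every control and every 1-hour array, while those of 1 hour overlapped the controls. The rise at 6 hours was 1.33 ± 0.17 on the log2 scale (SE, adjusted p = 8.136e-08), a 2.51-fold difference. The step from 1 to 6 hours was 1.27 ± 0.19 (adjusted p = 6.801e-06), when 10.9% of all genes passed. By 12 hours the arrays read 9.20, 9.33, 9.38 and 9.42, a fall from 6 hours of -0.67 ± 0.18 (adjusted p = 0.0109; 9.38% of all genes passed this step). They were still above every control, by 0.66 ± 0.17 (adjusted p = 0.0024).

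Tnfrsf1a then stayed on a plateau. At 24 hours its 11 arrays ran from 8.85 through a median of 9.39 to 9.72, and the difference from control was 0.69 ± 0.14 (adjusted p = 0.0001263). Without the 3 arrays that went against the label it was 0.70 (adjusted p = 0.000169). Its differences at 48 hours, 3 days and 4 days were 0.53, 0.53 and 0.60, all past the threshold, with every array above every control. They narrowly missed it without 48-hour replicate 3 (0.47, adjusted p = 0.0611), 3-day replicate 4 (0.46, adjusted p = 0.0536) and 4-day replicate 2 (0.47, adjusted p = 0.0554). With quantile normalization these 3 calls were lost as well. At 1 week 3 arrays read 9.23, 9.03 and 9.37 and the fourth 10.32, and the mean difference was 0.82 ± 0.17 (adjusted p = 0.0002307). With the hybridization controls, bacterial transcripts added to the hybridization mix, as a term in the model, the calls at 6, 12 and 24 hours passed, and those at 48 hours, 3 days, 4 days and 1 week did not (0.56, 0.59, 0.66 and 0.87, with adjusted p = 0.0501, 0.2577, 0.2061 and 0.066). These differences were larger than without the term. The hybridization controls averaged 10.66 on the control arrays and 9.51 to 10.16 by operated group. The term is therefore poorly separated from control against operated, and a call lost with it cannot be told apart from a loss of precision. At 2 weeks both arrays read 8.71, inside the control range, and the 4-week and 3-month means of 8.85 and 8.89 did not pass. The other TNF receptor, Tnfrsf1b, which was no member, rose by 0.90 at 1 hour, 1.73 at 6, 1.36 at 12 and 1.02 at 24 hours. It did not pass at 48 hours (0.09), 3 days (0.15) or 4 days (0.40), was higher again by 1.02 at 1 week, 1.03 at 2 weeks and 0.81 at 4 weeks, and did not pass at 3 months (0.45).

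Bcl3, a nuclear IkB-family protein that works with NF-kB dimers on DNA, rose at 6 hours alone. Control arrays read 7.23, 7.18, 7.10, 6.37 and 6.92, the 1-hour arrays 6.88, 6.22 and 6.50, and the 6-hour arrays 8.34, 8.49, 8.36 and 8.81. All 4 arrays at 6 hours lay above all controls. The difference from control was 1.54 ± 0.31 (adjusted p = 0.0001695), a 2.91-fold difference, and the step from 1 to 6 hours was 1.97 ± 0.35 (adjusted p = 8.094e-05), the largest step of any member. At 12 hours the arrays read 6.51, 7.30, 7.36 and 7.42, back among the controls, a fall of -1.35 ± 0.33 from 6 hours (adjusted p = 0.0039). At 24 hours its arrays spread from 6.48 to 8.17 (median 7.37) and no later time passed. Both ends of that spread were arrays that went against the label, replicates 10 and 9. At 2 weeks both arrays, 6.03 and 5.70, lay below every control, a difference of -1.10 that did not pass. The 3-month difference of 0.63 passed only without 3-month replicate 2 (1.05, adjusted p = 0.0335). Without 3-month replicate 3, which read 9.01, it was -0.080 (adjusted p = 0.89).

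Nfkbiz, an inducible nuclear IkB protein needed for a subset of inflammatory genes, was higher at 6 hours. The control arrays read 6.40, 7.14, 6.26, 5.93 and 5.71, the 1-hour arrays 7.07, 7.68 and 6.92, and the 6-hour arrays 7.62, 7.62, 7.83 and 7.69. The 6-hour arrays were all above the controls, and those of 1 hour overlapped 1 control. The difference was 0.94 at 1 hour, which did not pass, and 1.40 ± 0.50 at 6 hours (adjusted p = 0.0383). The 6-hour call was lost when any of the 9 arrays of both groups but control replicate 2 was left out, at 1.26 to 1.43 and adjusted p up to 0.0936, and also with the replicate number as a block, quantile normalization, the mean of the probe sets or the second brightest of them. The arrays at 12 hours, 6.01, 6.75, 5.88 and 6.47, were again within the control range. Its only other call, 1.30 at 4 days (adjusted p = 0.0434), rested on 1 array: without 4-day replicate 4 the difference was 0.22 (adjusted p = 0.68). It was also lost without control replicate 1, 3, 4 or 5 (1.15 to 1.33, adjusted p up to 0.0973).

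Nfkbia encodes IkB alpha, the inhibitor that NF-kB itself induces, and it had its highest group mean at 1 hour. The controls read 9.63, 9.65, 9.82, 9.70 and 9.82, the 1-hour arrays 10.66, 10.56 and 10.43, and the 6-hour arrays 10.23, 10.23, 10.26 and 10.34. Neither group overlapped the controls. The differences of 0.83 ± 0.31 at 1 hour and 0.54 ± 0.29 at 6 hours did not pass (adjusted p = 0.1253 and 0.1968). In fits of only the groups compared they did (adjusted p = 0.00681 and 0.0004539), and they also did with array weights and without the 3 arrays described below, on one of which it read 11.88. All 5 probe sets of Nfkbia were higher at 1 hour, by 0.54 to 0.93.

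Nfkbia read lower again at 48 hours and 3 days. The 48-hour arrays read 9.69, 9.47, 8.97 and 9.07 and the 3-day arrays 9.54, 9.45, 9.21 and 9.52, the latter all below every control. Those differences did not pass. The 1-week arrays, 10.37, 9.84, 9.89 and 10.66, the 2-week arrays, 10.52 and 10.36, and the 3-month arrays, 10.16, 9.92 and 11.04, lay above every control, again without passing at any single time (2 of the 11 times had an unadjusted p under 0.05). At 4 days the difference of 0.47 passed without 4-day replicate 1 (0.79, adjusted p = 0.0425) and with array weights. Without 4-day replicate 4, which read 11.88, it was -0.088 (adjusted p = 0.80). Over all times together Nfkbia passed the F test (adjusted p = 0.0085).

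Tnfaip3, which encodes the ubiquitin-editing enzyme A20 that shuts off NF-kB signalling, had 3 calls, at 4 days, 1 week and 3 months. Its control arrays, 3.87, 4.68, 3.71, 3.44 and 3.54, lay near 4.04, the controls' median over all probe sets, so its control level was not separated from background and log2 differences can understate the change. The 6-hour arrays read 5.15, 5.22, 4.92 and 5.16 and the 12-hour arrays 4.90, 5.52, 4.92 and 5.77, all above every control, by 1.26 and 1.43. These 2 differences did not pass (adjusted p = 0.1866 and 0.0987), but did without the 3 high arrays (adjusted p = 0.006939 and 0.001731). At 4 days the arrays read 4.26, 6.71, 4.67 and 10.49, and the difference of 2.68 ± 0.66 passed (adjusted p = 0.0018). Without 4-day replicate 4 it was 1.36 (adjusted p = 0.0418). The 1-week rise of 1.97 (adjusted p = 0.0172) became 1.65 and no longer passed without 1-week replicate 4 (adjusted p = 0.0739). The 3-month rise of 1.84 (adjusted p = 0.0475) fell to 0.61 without 3-month replicate 3 (adjusted p = 0.58), and at 1.74 to 1.84 it also missed without control replicate 1, 3, 4 or 5 (adjusted p up to 0.0792). At 24 hours, 1.25 did not pass, but did without control replicate 2 (1.46, adjusted p = 0.049), with only the groups compared (adjusted p = 0.006839) and without the 3 high arrays (adjusted p = 0.0007447). Without the 3 arrays that went against the label it was 1.08 (adjusted p = 0.1418).

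The late Tnfaip3 rises were seen with 1 of its 2 probe sets. The second set, at 2.82 on the controls also below the median of all probe sets, differed by 0.063 at 4 days, -0.083 at 1 week and 0.020 at 3 months, and it was lower than control at 24 hours (-0.16), 48 hours (-0.34), 3 days (-0.073) and 4 weeks (-0.11), where the brighter set was higher. With the hybridization controls in the model all 3 calls were lost as well (adjusted p = 0.0831, 0.1384 and 0.2533), although the differences of 3.39, 2.68 and 2.56 were larger. That term is poorly separated from control against operated, so these losses cannot be told apart from a loss of precision. With only the groups compared the 4-day call was lost too.

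Birc3 encodes cIAP2, a ubiquitin ligase of the TNF receptor complex, and its brighter probe set was called lower at 6 and at 48 hours. The control arrays read 7.11, 6.64, 7.15, 6.70 and 7.50, the 1-hour arrays 7.27, 7.50 and 7.40, and the 6-hour arrays 6.42, 6.27, 5.98 and 6.16. Every 6-hour array was below every control and every 1-hour array. The difference at 6 hours was -0.81 ± 0.29 (adjusted p = 0.0364), and the step from 1 to 6 hours was -1.18 ± 0.33 (adjusted p = 0.0122). The step missed the threshold without 1-hour replicate 2 (-1.13, adjusted p = 0.0586). The 6-hour call was lost without any of control replicates 1, 3 and 5 and 6-hour replicates 2, 3 and 4 (-0.69 to -0.83, adjusted p up to 0.1077). At 12 hours the arrays, 6.77, 6.68, 6.72 and 6.70, overlapped the controls. At 48 hours they read 6.01, 6.23, 6.31 and 6.58 and were again below all controls, a difference of -0.73 ± 0.29 (adjusted p = 0.0486) that was lost without any of control replicates 1, 3 and 5 and 48-hour replicates 1, 2 and 3 (-0.61 to -0.74, adjusted p up to 0.1298) and without the 3 arrays that went against the label (adjusted p = 0.0527). A second, dimmer Birc3 probe set differed by -0.31 at 6 hours and moved by 0.0022 between 1 and 6 hours, so it did not show the step. It was also lower than control at 1 hour (-0.32), 4 days (-0.035), 1 week (-0.61), 2 weeks (-0.39) and 3 months (-0.040), where the brighter set was higher. With this dimmer set Birc3 was called lower at 12, 24 and 48 hours, 3 days and 1 week (-0.50, -0.38, -0.49, -0.48 and -0.61). Its control mean, 3.78, lay below the median of all probe sets. At 3 months the brighter set differed by 0.74, which passed without control replicate 5 (0.86, adjusted p = 0.0447), without 3-month replicate 2 (1.15, adjusted p = 0.0137) and without the 7 arrays that stood apart in Xist, Gapdh or likeness to their group. Without 3-month replicate 3 this difference was 0.21 (adjusted p = 0.67). With the hybridization controls in the model neither the 6-hour nor the 48-hour fall passed (-0.52 and -0.50, with adjusted p = 0.3551 and 0.3077).

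Icam1, the adhesion molecule that leukocytes bind on endothelium and a classic NF-kB target, was called at 12 and 24 hours and again at 4 days, 1 week and 3 months. Control arrays read 4.85, 5.35, 5.13, 4.90 and 4.93, and the 1-hour arrays 5.26, 5.72 and 4.91. The arrays read 6.24, 6.36, 6.13 and 6.28 at 6 hours, and 6.24, 6.65, 6.58 and 6.41 at 12 hours. From 6 hours to 1 week every array lay above every control. The 6-hour difference of 1.22 did not pass (adjusted p = 0.122), though it passed with only the groups compared (adjusted p = 8.333e-06). The 12-hour difference was 1.44 ± 0.56 (adjusted p = 0.047), and it was lost when any of the 9 arrays but control replicate 2 was left out (at least 1.38, adjusted p up to 0.1025), with the replicate number as a block or median centring, and without the 3 arrays that went against the label (adjusted p = 0.0513).

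At 24 hours the 11 arrays of Icam1 ran from 5.43 through a median of 6.77 to 7.53. The difference from control was 1.71 ± 0.45 (adjusted p = 0.003), a 3.28-fold difference, and without the 3 arrays that went against the label it was 1.62 (adjusted p = 0.0099). At 48 hours and 3 days the means were 6.00 and 6.20, and neither passed. The later rises of 1.93 at 4 days, 1.82 at 1 week and 1.85 at 3 months fell to 1.22, 1.15 and 0.45 without 4-day replicate 4, 1-week replicate 4 and 3-month replicate 3, and none of the 3 then passed (adjusted p = 0.0861, 0.1127 and 0.5959). With all 3 arrays left out together, the 4-day and 1-week rises passed (adjusted p = 0.003202 and 0.005537) and the 3-month difference did not (adjusted p = 0.3798).

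Relb, the partner of processed NFKB2, passed at no time in the fit of all arrays, with 1 of 11 times at an unadjusted p under 0.05. Its controls, 3.47, 3.90, 3.57, 3.94 and 3.63, lay below the median of all probe sets, so a low level could not be told from background. The 48-hour arrays, 3.31, 3.46, 3.40 and 3.31, lay below every control and the 2-week arrays, 3.98 and 4.02, above. Values above 5 were seen on 3 arrays only: 5.49 on 4-day replicate 4, 5.52 on 1-week replicate 4 and 6.40 on 3-month replicate 3. Leaving out an array that lay low brought calls: 0.93 at 4 days without replicate 3 (adjusted p = 0.0452), and at 3 months 1.37 without replicate 1 (adjusted p = 0.0143) and 1.26 without replicate 2 (adjusted p = 0.0238). Leaving out the high array instead gave 0.30 at 4 days (adjusted p = 0.54) and -0.073 at 3 months (adjusted p = 0.90).

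**Figure D2:**
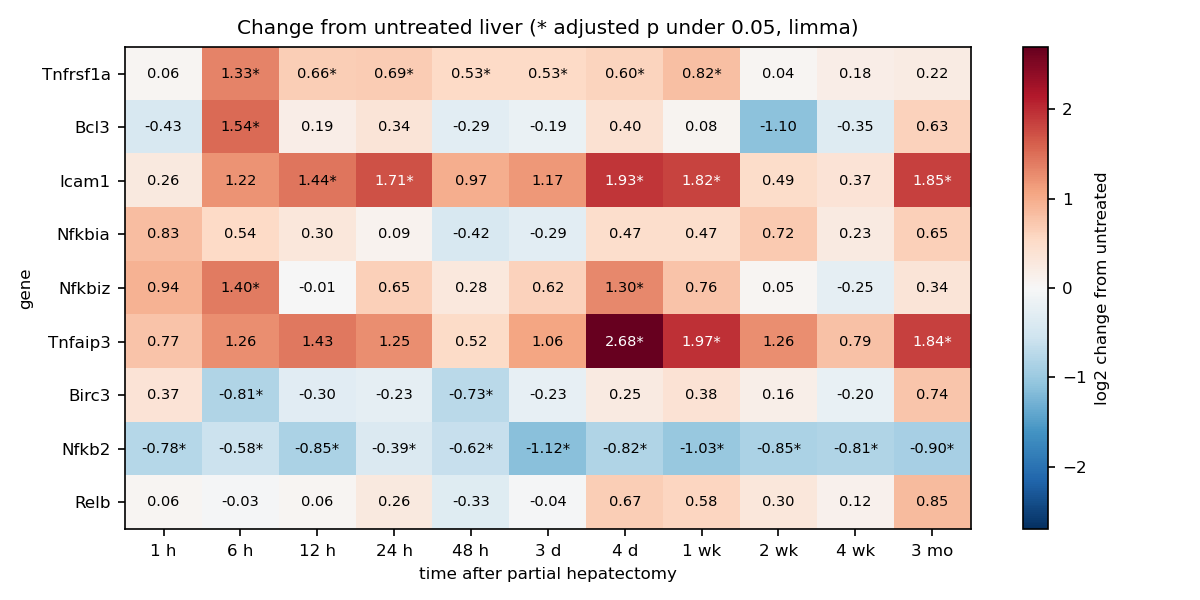
Log2 change from untreated liver for each gene (rows) at each of the 11 times (columns); colour and number give the change, and a star marks an adjusted p under 0.05 (limma). Tnfrsf1a carries stars from 6 hours to 1 week and Nfkb2 at all 11 times, while Nfkbia and Relb carry none.

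Nfkb2, which encodes the p100 precursor of the second branch, was called lower at all 11 times by its brighter probe set. The control arrays read 6.54, 6.10, 6.08, 6.08 and 6.38. The 1-hour arrays read 5.05, 5.84 and 5.49, and the 3-day arrays 5.04, 5.32, 5.18 and 4.92. Except at 24 hours, where arrays ran from 5.31 to 6.38, every operated array lay below every control. Without control replicate 1, the array with the highest hybridization controls, the falls at 1, 6 and 24 hours and 2 weeks no longer passed (-0.70, -0.51, -0.31 and -0.77, with adjusted p = 0.0583, 0.0531, 0.1469 and 0.0902). The 1-hour fall was also lost without 1-hour replicate 1 (-0.57, adjusted p = 0.1964), that of 48 hours without its replicate 4 (-0.50, adjusted p = 0.0521), that of 2 weeks without either of its arrays (adjusted p = 0.2914 and 0.2112), and that of 24 hours without control replicate 5 or 24-hour replicate 1, 2, 3 or 4 (adjusted p up to 0.0944). Without the 3 arrays that went against the label the 24-hour fall was -0.47 (adjusted p = 0.016). The changes ran from -0.39 ± 0.14 at 24 hours (adjusted p = 0.0363) to -1.12 ± 0.18 at 3 days (adjusted p = 4.351e-06).

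The 2 probe sets of Nfkb2 did not give the same result. The other set passed at none of the 11 times (1 at an unadjusted p under 0.05), and it read 0.17 higher than control at 24 hours, 0.28 at 4 days, 0.12 at 1 week and 0.45 at 3 months. The hybridization controls also differed: their mean ran from 10.38 to 11.08 on the control arrays and from 9.19 to 10.63 on the operated ones. Over the 47 operated arrays the brighter set followed them with Pearson's r = 0.64 (permutation p = 1e-05, the smallest that 100000 permutations can give; adjusted over 2 relations 2e-05) and Spearman's rho = 0.61 (permutation p = 2e-05). Without the 2 arrays farthest from the median r was 0.56, and for deviations from each time's mean it was 0.45. The other set gave r = 0.0025 (permutation p = 0.99) and rho = -0.019 (permutation p = 0.90). All member probe sets were correlated with these controls, and the brighter Nfkb2 set had the largest r. The adjustment over 2 relations does not cover the probe sets of other members. The permutations mixed arrays of different times, although the mean hybridization controls differed by time (9.51 at 3 days, 10.16 at 48 hours). These p-values are therefore a description, and the r within times was not tested. With the hybridization controls in the model the brighter set passed at 12 hours (-0.53, adjusted p = 0.0483) and at no other time against control. With them in the model the 6-hour rise was 1.36 for Tnfrsf1a and 1.82 for Bcl3, both past the threshold, while both Birc3 falls, 4 of the 7 Tnfrsf1a calls, all 3 Tnfaip3 calls, the 4-day Nfkbiz call and the 3-month Icam1 call were lost. Since the term is poorly separated from control against operated, lost calls cannot be told apart from a loss of precision.

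**Figure D3:**
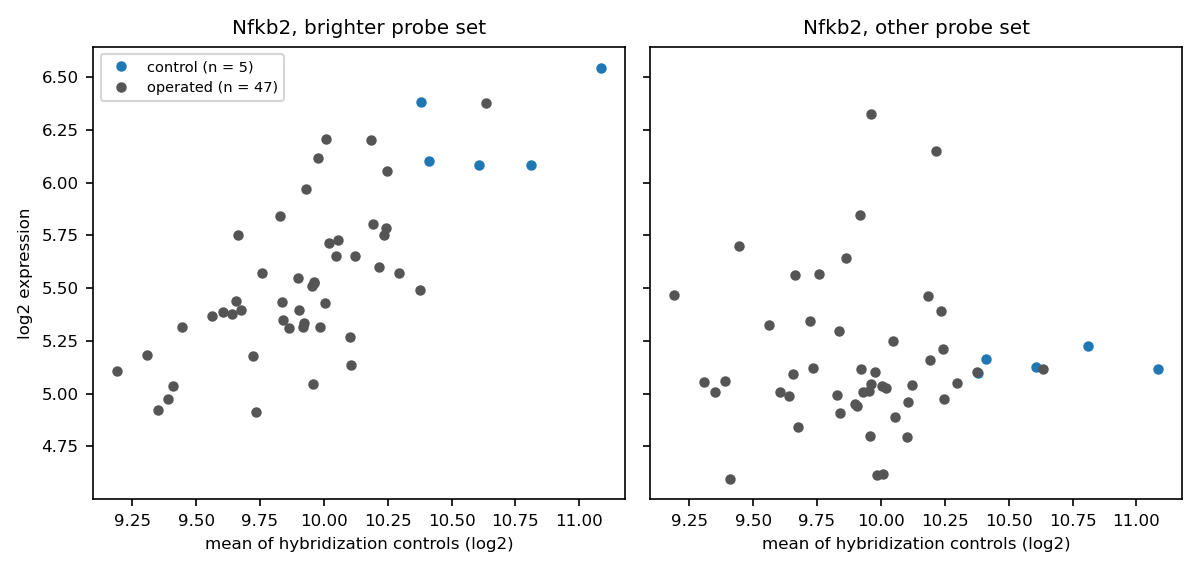
Log2 expression of the brighter (left) and the other (right) Nfkb2 probe set against the mean log2 signal of the hybridization controls, 1 point per array, 5 control and 47 operated arrays. The brighter set rises along the axis, with r = 0.64 over the operated arrays, and the other set does not.

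A few single arrays carried much of the late signal of these genes. On 4-day replicate 4, 6 of the 9 members lay at least 1 log2 unit above the next highest array of the group, on 3-month replicate 3 it was 5, and on 1-week replicate 4 it was 3. None of the other 49 arrays had more than 1 such member, and 47 of them had none. The same held for 85 of 18194 genes on 4-day replicate 4 (0.467%), for 102 on 3-month replicate 3 (0.561%) and for 699 on 1-week replicate 4 (3.84%). These arrays were picked out after their values were seen, so the counts are a description.

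On 4-day replicate 4, Tnfaip3 read 10.49 where the other 3 arrays read 4.26 to 6.71, and Nfkbiz 10.81 against 6.21 to 6.89. Nfkbia read 11.88 against 9.24 to 9.92, Icam1 9.09 against 5.80 to 7.02, and Birc3 8.46 against 6.79 to 7.04. Tnfrsf1a, at 9.20, lay inside the range of the others. Of the 22 other inducible target genes, 10 were raised in the same way, among them the chemokine genes Cxcl1 (12.74 against 7.75 to 9.35), Cxcl2 (7.57 against 2.26 to 2.62) and Cxcl10 (10.08 against 4.80 to 5.71).

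On 3-month replicate 3, Icam1 read 9.68 against 5.08 and 5.88, Tnfaip3 8.14 against 4.42 and 4.50, and Relb 6.40 against 3.52 and 3.74. Bcl3 read 9.01 against 6.74 and 7.02, and Birc3 8.82 against 6.95 and 7.52. Among the 22 targets 7 were raised, and Tlr2, a receptor for bacterial lipoproteins, read 9.17. On both this array and 4-day replicate 4, 28 genes lay at least 1 log2 unit above their group, which is 27.5% and 32.9% of the 2 lists. These 28 included 4 members, Tnfaip3, Icam1, Birc3 and Relb, with Cxcl1, Cxcl2, Cxcl10, Ccl2, Il1b, Tlr2, Nfkbie and the acute-phase genes Saa3, Orm2 and Lcn2.

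On 1-week replicate 4, Icam1 read 8.86 against 6.00 to 6.39, Nfkbiz 8.00 against 6.63 to 6.85, Relb 5.52 against 3.58 to 4.04 and Tnfrsf1a 10.32 against 9.03 to 9.37. S100a8, a neutrophil granule gene, read 10.32 against 3.94 to 5.32 on the other 3 arrays, and Cxcl10, at 4.39, lay below theirs, 5.72 to 6.79. The mean of 5 neutrophil markers was 6.78 on this array, with a group range from 4.38. Of these 5, S100a9 (9.84 against 4.97 to 5.56) and Cxcr2 (4.44 against 3.63 to 3.77) were also the highest of the group. Csf3r (5.86 against 5.23 to 6.06) and Mpo (3.42 against 2.81 to 3.48) lay inside the range of the others. The mean of 8 markers of Kupffer cells (liver macrophages) was 8.02 on this array, with a group range from 6.51. On 4-day replicate 4 and 3-month replicate 3 the neutrophil means, 5.60 and 5.22, were also the highest of their groups (the others 4.42 to 5.12, and 4.29 and 4.76), as was S100a8 (7.51 and 6.81). Mpo on 4-day replicate 4 (3.39, others up to 3.47) and Cxcr2 on 3-month replicate 3 (3.70, others up to 4.17) were not the highest. The remaining markers of that list were. The Kupffer means of these 2 arrays were 6.67 and 6.53, and they lay inside the 4-day range of 5.95 to 7.19 and at the low end of the 3-month range of 6.53 to 7.61. Their part in the members' values was not tested.

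**Figure D4:**
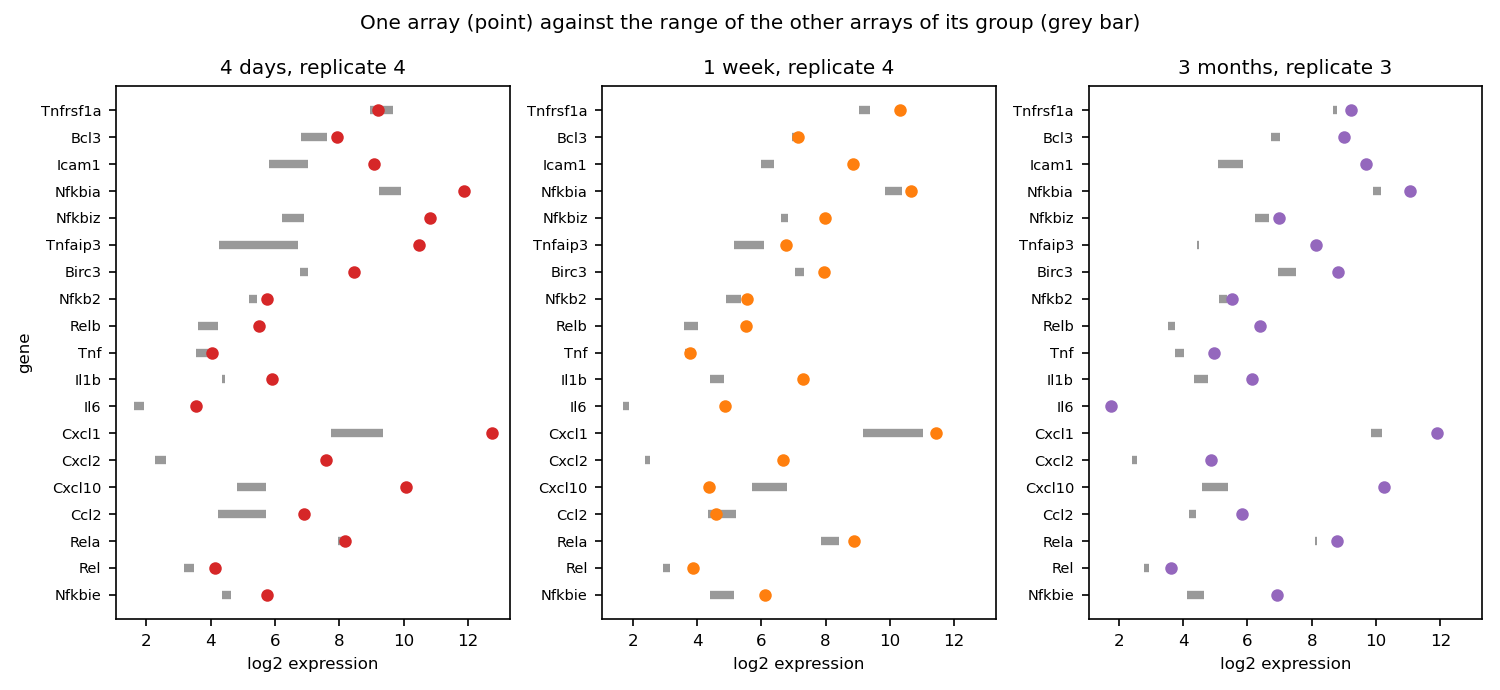
Log2 expression (horizontal axis) of the 9 genes and 10 other pathway genes (rows) on 4-day replicate 4, 1-week replicate 4 and 3-month replicate 3 (points), with the range of the other arrays of the same group as grey bars. On 4-day replicate 4 the points for Nfkbiz (10.81) and Tnfaip3 (10.49) lie far to the right of their bars, while Tnfrsf1a (9.20) lies inside its bar.

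The rest of the pathway was read through 3 lists. Of all genes, 3.67% passed higher and 1.37% lower at 1 hour, and 11.4% and 10.5% at 6 hours. The shares were 18.9% and 12.8% at 24 hours and 17.4% and 13.4% at 48 hours. They were 18.8% and 14.1% at 4 days and 16.7% and 13.4% at 3 months. Of 16 measured receptors and adaptors upstream of NF-kB, 5 were higher and 1 lower at 6 hours (median change 0.34, all genes -0.02), and at 24 hours 7 were higher and 1 lower (median 0.30). At 6 hours Cd14, the lipopolysaccharide co-receptor, was higher by 3.72 ± 1.04, and Il1r1, the interleukin-1 receptor, by 3.65 ± 0.42. Irak2, a kinase of interleukin-1 and Toll-like receptor signalling, was higher by 1.56 ± 0.24, and Tradd, an adaptor of the TNF receptor, lower (-1.07 ± 0.17). At 1 hour 1 of the 16, Tnfrsf1b, was higher and at 4 days 1, Il1r1.

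Of 21 other kinases, Rel and IkB proteins and brakes, 6 were higher and 2 lower at 6 hours (median change 0.17), 8 and 1 at 24 hours, 10 and 2 at 4 days and 8 and 1 at 3 months. At 6 hours Nfkbib, another IkB gene, was higher by 0.97 ± 0.18, Tnip2, an A20-binding inhibitor, by 0.96 ± 0.23, Rel by 0.94 ± 0.21 and Rela, the main activating subunit, by 0.56 ± 0.13. Rel read 2.56 to 3.16 on the controls and 3.74 to 4.00 at 6 hours. All of these lay below 4.04, the controls' median over all probe sets, so its level was not separated from background. Otulin, which removes linear ubiquitin chains, was higher at all 11 times, from 0.55 at 12 hours to 1.45 at 3 months, with 0.96 ± 0.21 already at 1 hour (adjusted p = 0.0036). Zfp36, which destabilises Tnf mRNA, was lower from 12 hours to 4 days and at 4 weeks and 3 months, by the most at 3 days (-1.80 ± 0.33, adjusted p = 3.606e-05).

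Of the 22 other inducible targets, 3 were higher and 2 lower at 6 hours (median change 0.12), 1 and 0 at 1 hour, 2 and 0 at 24 hours, 0 and 2 at 48 hours and 3 and 0 at 4 days. The 6-hour rises were of Ier3, a stress-induced early gene (3.70 ± 0.71), the neutrophil chemokine Cxcl1 (2.87 ± 0.70) and Gadd45b (1.93 ± 0.37), and the falls of Tnfaip2 (-1.38 ± 0.46) and Irf1 (-0.91 ± 0.25). At 1 hour Gadd45b alone passed (1.42 ± 0.41, adjusted p = 0.0306). The ligand genes were dim: group means ran from 3.37 to 4.24 for Tnf, from 1.62 to 2.56 for Il6 and from 4.36 to 5.28 for Il1b. Tnf passed at 3 months (0.54 ± 0.16, adjusted p = 0.0092) and Il1b at 1 week (0.87 ± 0.33, adjusted p = 0.0339), and in both cases 1 of the 3 high arrays was far above the rest. Tnf read 4.95 on 3-month replicate 3 against 3.73 and 4.03 on the other 3-month arrays and 3.50 to 3.89 on the controls. Il1b read 7.31 on 1-week replicate 4, 6.15 on 3-month replicate 3 and 5.89 on 4-day replicate 4, against 4.19 to 4.83 on the controls. Il6 read 4.88 on 1-week replicate 4 and 3.54 on 4-day replicate 4, against 1.63 to 2.14 on the controls, and passed at no time in limma, with 1 time at an unadjusted p under 0.05. At 1 and 6 hours none of the 3 ligand genes passed, with 0 at an unadjusted p under 0.05.

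The liver label was checked on 8 hepatocyte markers, whose mean lay between 12.81 and 13.15 on every array. In bulk liver, more cells of a type and more RNA per cell cannot be told apart. Kupffer markers moved too: 5 of 8 passed higher at 1 hour, 2 at 6 hours and 7 at 24 hours, 4 days and 1 week, and their list mean ran from 4.24 to 5.12 on the controls, from 5.41 to 5.63 at 6 hours and from 5.77 to 7.22 at 24 hours. Of 7 endothelial markers 2 were higher at 6 hours and 4 at 24 hours. Among all genes 3.67% passed higher at 1 hour, 11.4% at 6 and 18.9% at 24 hours, 18.8% at 4 days and 21.8% at 1 week. The mean of 5 neutrophil markers had its highest group value at 6 hours, when it ran from 5.15 to 5.76, against 3.92 to 4.22 on the controls. That mean was carried by 2 genes, S100a8 (3.78 ± 0.90) and S100a9 (3.13 ± 0.72), which passed at 6 hours, while Csf3r (-0.20), Cxcr2 (-0.06) and Mpo (0.11) did not, and the median change of the 5 was 0.11 at 6 hours and -0.24 at 12 and at 24 hours. S100a8 read 2.27 to 3.38 on the controls, below the median of all probe sets, and 6.20 to 7.36 at 6 hours. At 6 hours, where Tnfrsf1a and Bcl3 had their maximum, the Kupffer mean was above all controls and below all arrays of 1 hour (5.81 to 6.91) and 24 hours. S100a8 and S100a9 were raised at 6 hours but also at 12 hours (3.57 and 2.93) and 24 hours (2.91 and 2.24). The part of these cells in the changes of the members was not tested.

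Genes with the most similar time courses were looked up by Pearson's r over the 12 group means, among 5137 genes whose means spanned at least 1 log2 unit, as a description. Tnfrsf1a was closest to Ets2 (0.97) and Emd (0.96), Bcl3 to Myd88 (0.91) and Nfkbib (0.86), and Icam1 to Fhad1 (0.91) and Prg4 (0.90). Relb was closest to Tlr2 (0.91) and Itgal (0.905), Nfkbia to Rgs1 (0.84) and Pim3 (0.83), and Nfkbiz to Klf2 and Fosl2 (both 0.77). For Birc3 they were Gab1 (0.94) and Rassf5 (0.91), for Tnfaip3 Plek and Vasp (both 0.84), and for Nfkb2 2010109A12Rik (0.965) and Zbtb7b (0.94). The mean of the standardised members was closest to Cxcl2 (0.89), Ccl2 (0.83), Fosl2 (0.82), Hmox1 (0.78) and Map3k8 (0.78). The group means at 4 days, 1 week and 3 months include the 3 high arrays, so these likenesses share them.

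Of the 31 calls against control, 13 passed with every single array left out in turn, and 5 passed under every alternative as well: Tnfrsf1a at 6, 12 and 24 hours, Bcl3 at 6 hours and Icam1 at 24 hours. These genes have no second probe set here, so averaging the probe sets or taking the second brightest left their values unchanged. Nfkb2 at 12 hours was lost only with the second brightest probe set.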

How the data were processed

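The authors deposited 1 table of log2 expression values for 52 arrays, made with RMA in oligo 1.52.0 according to the submitters' processing notes. Such values compress differences of dim probe sets. Of 45101 probe sets, 34957 were annotated to 1 gene, 932 to several and 9211 were not listed. The brightest probe set on average stood for each of 18194 genes, 18033 of which matched a gene table of GRCm38.p6.

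Groups came from the labels. A model with 1 mean per group was fitted to all 52 arrays (limma 3.58.1 in R 4.3.3, lmFit and eBayes), so all groups share 1 estimate of spread per gene. Each time was compared with control and with the time before it, and p-values were adjusted over 18194 genes (Benjamini-Hochberg, threshold 0.05). All members are named. From 3 lists of pathway genes, up to 4 called genes with the largest change per list and time are named, plus Tnf, Il1b, Il6, Tnfrsf1b, Rela and Rel, and for likeness the 2 closest genes per member and the 5 closest to their mean. Other genes were named after their values were seen. The members and lists were chosen with earlier results of these data known. On simulated data for 6 hours against control, 88% of 100 genes changed 2-fold and 100% of 100 changed 4-fold were found, with 8 false calls. The simulation drew normal noise of equal spread in every group, without stray arrays, so these shares need not hold for the members.

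Checked alternatives were the replicate number as a block, only the groups compared, averaging the probe sets of each gene, a filter on low values (genes below the 40th percentile left out), median centring, quantile normalization, array weights, the hybridization controls as a covariate, leaving out 7 arrays that stood apart, leaving out 24-hour replicates 2 and 5 together, and leaving out each array in turn (52 fits). The 7 were 24-hour 9, 10 and 11 (Xist above 6), control 1 and 24-hour 1 (a Gapdh 3′ minus 5′ difference above 2) and 1-week 4 and 4-week 1 (a correlation below 0 with the rest of their group). Leaving out the 3 arrays high in several members, leaving out the 3 with high Xist and taking the second brightest probe set were chosen after seeing the data.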

Additional observations from a re-analysis of the deposited data

Results flagged for a closer look

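Among 72 member-by-group sets of 4 or 5 arrays tested for a stray array, 5 held one farther out than Dixon's 95% limit, and chance alone gives about 1 in 20. On 4-day replicate 4, Nfkbiz read 10.81, 3.92 above the next array, and Birc3 8.46, 1.42 above. On 1-week replicate 4, Nfkbiz read 8.00, 1.15 above the next, and Icam1 8.86, 2.46 above. On 12-hour replicate 1, Bcl3 read 6.51, 0.79 below the next array. Groups of 2, 3 and 11 arrays were not tested.

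The change against control differed between neighbouring times in 5 cases by the test of the step itself (limma, adjusted p under 0.05). From 1 to 6 hours Bcl3 moved by 1.97, Tnfrsf1a by 1.27 and Birc3 by -1.18. From 6 to 12 hours Bcl3 moved by -1.35 and Tnfrsf1a by -0.67.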

How the results depend on the processing

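In the fit of all arrays 1, 5, 3, 3, 3, 2, 5, 4, 1, 1 and 3 members differed from control from 1 hour to 3 months, in time order, 5 steps passed and 6 members passed the F test. With only the groups compared the counts were 2 at 1 hour, 8 at 6 hours, 4 at 3 days, 3 at 4 days, 3 at 2 weeks and 10 for steps. With array weights they were 2 at 1 hour, 8 at 6 hours, 2 at 2 weeks, 1 at 3 months and 11 for steps. With the hybridization controls as a covariate they were 0 at 1 hour, 48 hours, 3 days, 2 weeks, 4 weeks and 3 months and 1 at 4 days and 1 week. This covariate is poorly separated from control against operated. With the mean of probe sets the counts were 3 at 4 days, 0 at 2 weeks and 1 at 3 months, and with quantile normalization 1 at 3 days, 3 at 4 days and 2 at 2 weeks. Without arrays that stand apart 2 members passed at 1 week. Without the 3 arrays high in several members the counts were 2 at 1 hour, 8 at 6 hours, 5 at 24 hours, 4 at 3 days, 2 at 2 weeks, 1 at 3 months and 8 for steps. With the second brightest probe set they were 0 at 1 hour, 2 at 6 hours, 2 at 4 days, 0 at 2 weeks and 4 weeks and 1 at 3 months. Shares of all genes that passed were counted in the fit of all arrays alone. The member counts under the alternatives have no such share beside them, so a change in these counts may be shared by all genes. The cause was not tested.

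The second brightest set turned the direction for Nfkb2 at 24 hours (0.17), 4 days (0.28), 1 week (0.12) and 3 months (0.45), for Tnfaip3 (-0.083) and Birc3 (-0.61) at 1 week, and for Birc3 from 1 to 6 hours (0.0022). Among differences that neither set called, it also turned those of Tnfaip3 at 24 hours, 48 hours, 3 days and 4 weeks (-0.16, -0.34, -0.073 and -0.11), of Birc3 at 1 hour, 4 days, 2 weeks and 3 months (-0.32, -0.035, -0.39 and -0.040) and of Nfkbiz at 2 weeks and 3 months (-0.36 and -0.033). Without the 3 arrays with high Xist each count of members stayed within 1.5 times that of all arrays, and the calls of Icam1 at 12 hours (adjusted p = 0.0513) and Birc3 at 48 hours (adjusted p = 0.0527) were lost. Leaving out single arrays gave counts of 0 to 1 at 1 hour, 2 to 5 at 6 hours, 2 to 3 at 12 hours, 2 to 4 at 24 hours, 1 to 3 at 48 hours, 1 to 2 at 3 days, 3 to 6 at 4 days, 2 to 4 at 1 week, 0 to 1 at 2 weeks, 1 to 1 at 4 weeks and 1 to 6 at 3 months, 5 to 7 steps and 6 to 8 members by the F test.

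No pairing of the arrays by replicate number was seen. Deviations of same-numbered arrays from their group means had a median r of -0.0029 (224 pairs), and of others 0.0052 (988 pairs). Single pairs ran from -0.55 to 0.56 and from -0.56 to 0.54, so weak or partial pairing could not be told from none. With the number as a block 1, 4, 2, 3, 2, 2, 4, 4, 1, 1 and 2 members passed in the same order, with 5 steps and 6 by the F test. Relb and the control levels of Tnfaip3 lay near background.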
